A study of Mus musculus with 51 samples.

Results

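RNA levels of 10 genes that govern the passage from G1 into S phase were followed in mouse tumors and cultured cancer cells in which the ubiquitin-activating enzyme UBA1 was depleted, overproduced or inhibited. The genes were Ccnd1, Ccnd2, Ccnd3, Ccne1, Ccne2, Cdkn1b, Skp2, Rb1, E2f1 and Cdc25a, chosen by name because their proteins are regulated by ubiquitin ligases or belong to the same switch, by a rule that uses no values, although earlier results of these data were known when it was made. All 10 were found, each once, among the 40077 genes of the tables, and all 10 passed the filter on low counts in every comparison. The study asked how UBA1 shapes tumor growth, immune infiltration and the interferon response, and sequenced 51 RNA libraries, 35 from subcutaneous tumors and 16 from cultured cells.

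The tumors grew from B16-BL6, a mouse melanoma line, in female C57BL/6 mice, or from Myc-CaP, prostate cancer cells of the mouse, in male FVB mice, aged 6 to 8 weeks at the start. B16-BL6 tumors carried a control sgRNA (sgNC, n = 3) or an sgRNA against Uba1 (sgUba1, n = 4), and Myc-CaP tumors likewise carried sgNC (n = 3) or sgUba1 (n = 7). Other Myc-CaP tumors carried an empty vector (EV, n = 3) or a vector overexpressing Uba1 (Uba1 OE, n = 4), and tumors of unmodified Myc-CaP came from mice given vehicle (n = 6) or TAK-243 (n = 5), a small-molecule inhibitor of UBA1, at 25 mg/kg intravenously 2 times per week. Of the cultured Myc-CaP cells, 4 groups of 2 libraries were unmodified cells left untreated, given 50 nmol/L TAK-243, given IFN-γ or given TAK-243 and IFN-γ. The other 4 groups of 2 libraries were NC (control sgRNA) and sgUba1 cells, each with PBS or with IFN-γ, which was used at 1 ng/mL for 18 hours, the same time as TAK-243. The sgRNA sublines were clones grown from single cells, 2 guides against Uba1 were used and the labels do not say which guide a library carried. In every sgUba1 comparison an effect of the sgRNA and a difference between clones therefore cannot be told apart. Mice were injected on both flanks, so that some tumors may share a mouse, and nothing states that same-group libraries of cells came from separate cultures. The p-values then measure only the spread between these libraries.

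D-type cyclins (Ccnd1, Ccnd2, Ccnd3) activate the kinases CDK4 and CDK6 in G1, which phosphorylate the retinoblastoma protein (Rb1) and release E2F transcription factors such as E2F1 from it. E2F factors then induce E-type cyclins (Ccne1, Ccne2), which activate CDK2, and the phosphatase Cdc25a removes inhibitory phosphates from CDK2, while Cdkn1b (p27) blocks it. Ubiquitin ligases act on both the inhibitor and the activators of this switch. The F-box protein Skp2 brings the inhibitor p27 to an SCF ligase, and other ubiquitin ligases, SCF ligases among them, take the activators cyclin E, cyclin D1 and Cdc25a. UBA1 supplies the activated ubiquitin that they all use. The measurements below are of RNA, and none of these proteins was measured here.

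The genes lie apart from each other in the mouse genome (GENCODE M21, build GRCm38). The D-type cyclins are Ccnd1 at chr7:144929931-144939925 (minus strand), Ccnd2 at chr6:127125162-127152193 (minus) and Ccnd3 at chr17:47505051-47599691 (plus). The E-type cyclins are Ccne1 at chr7:38097984-38107534 (minus) and Ccne2 at chr4:11191351-11204779 (plus). Cdkn1b is at chr6:134920401-134925513 (plus), Skp2 at chr15:9111985-9155425 (minus), Rb1 at chr14:73183673-73325822 (minus), E2f1 at chr2:154559407-154569892 (minus) and Cdc25a at chr9:109875579-109893895 (plus).

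Because several of these genes are known targets of E2F factors or of MYC, the 250 bases before the RefSeq start were read from promoter windows (RefSeq, GRCm38.p6), which matched 6 of the 10 genes with 8 windows: Ccnd3, Ccne1, Cdkn1b, Skp2, E2f1 and Cdc25a. The E2f1 window lies inside the gene given above, 294 bases from the nearest GENCODE start and over coding sequence, so it says nothing of the E2f1 promoter and is left out of what follows. On both strands, 4 forms of the E2F motif were searched, TTTCCCGC, TTTCGCGC, TTTGCCGC and TTTGGCGC, and the E-box CACGTG, which is bound by MYC. An E2F form was present in 611 of all 32851 windows (1.86%) and the E-box in 1978 (6.02%). Among the other 7 windows, the only match was a TTTGGCGC in Cdc25a, whose first base lies 67 bases before the start. The sequences of 3 genes are shown, Cdc25a for this match and Cdkn1b and Ccne1 as genes that fell with TAK-243 in culture and hold neither motif in these letters. Each runs 5′ to 3′ on the gene's strand and ends at the base before the first annotated start, and capitals mark the E2F match. The stretches are chr9:109875329-109875578 (plus), chr6:134920151-134920400 (plus) and chr7:38107535-38107740 (minus).
Cdc25a: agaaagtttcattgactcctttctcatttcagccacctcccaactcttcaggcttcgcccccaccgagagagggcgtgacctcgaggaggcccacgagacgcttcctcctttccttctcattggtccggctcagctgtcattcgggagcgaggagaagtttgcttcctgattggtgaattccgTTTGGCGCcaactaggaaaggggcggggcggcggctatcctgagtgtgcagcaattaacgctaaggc
Cdkn1b: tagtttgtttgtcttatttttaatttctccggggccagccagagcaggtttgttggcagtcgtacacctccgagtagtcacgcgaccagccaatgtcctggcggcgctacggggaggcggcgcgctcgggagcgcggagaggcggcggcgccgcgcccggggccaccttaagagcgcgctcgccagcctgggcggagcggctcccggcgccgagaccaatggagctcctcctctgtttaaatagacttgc
Ccne1: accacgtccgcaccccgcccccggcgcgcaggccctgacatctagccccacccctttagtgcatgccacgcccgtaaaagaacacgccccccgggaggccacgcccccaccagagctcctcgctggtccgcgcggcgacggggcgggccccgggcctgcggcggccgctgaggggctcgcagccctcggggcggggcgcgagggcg

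Total expected counts ranged from 8652097 to 38032395 per library. Values are given as CPM (counts scaled to library size by TMM) within a comparison, and as TPM (transcript abundance per length) where genes or all groups are set side by side. Uba1 RNA was lower in sgUba1 than in NC cells, at 295 and 283 against 533 and 525.6 CPM, and lower in all 4 B16-BL6 sgUba1 tumors (208 to 247 CPM) than in the 3 sgNC tumors (410 to 455 CPM). In the 7 Myc-CaP sgUba1 tumors it was 197, 202, 211, 373, 361, 368 and 383 CPM against 320, 325 and 337 CPM in sgNC tumors, so that 4 of the 7 libraries labelled sgUba1 lay above every control. Uba1 OE tumors had 631 to 747 CPM against 278 to 310 CPM in EV tumors. In unmodified cells mean Uba1 RNA was 580 CPM with TAK-243 against 449 CPM without (edgeR adjusted p = 5.68e-12). With IFN-γ these means were 636 and 552 CPM (edgeR adjusted p = 6.04e-07). IFN-γ alone also raised it above untreated cells (edgeR adjusted p = 9.92e-09). TAK-243 and vehicle tumors had means of 333 and 348 CPM (edgeR adjusted p = 0.752). Melanocyte genes summed to 12484 CPM or more in each B16-BL6 tumor and to at most 32.5 CPM in every other library. Prostate epithelial genes summed to at least 1314 CPM in Myc-CaP libraries, where Epcam was nevertheless at or near the floor of 3 counts. Krt18 was also at 3 counts or fewer in all Myc-CaP sgUba1 tumors, NC cells without IFN-γ and unmodified cells given IFN-γ alone. Cdh1 was at 3 counts or fewer in untreated cells, so the sum does not stand for each of its 6 genes. Cultured cells are labelled prostate tumor as tissue, but their 14 leukocyte genes summed to at most 10.8 CPM, with 8 to 10 of the genes at 3 counts or fewer.

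In cultured Myc-CaP cells given TAK-243, Ccnd1 and E2f1 fell to less than 0.5 of their level in untreated cells. A gene was called when edgeR's quasi-likelihood test gave a Benjamini-Hochberg adjusted p under 0.05 over all genes tested. In cells without IFN-γ, 7 of the 10 genes were called, 6 lower and 1 higher, where 66.3% of all genes were called (34.0% lower and 32.3% higher), so that the number called is close to the background. The median log2 fold change of the 10 genes was −0.23 and that of all genes 0.03.

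Ccnd1, the main D-type cyclin of these cells, had 245 and 257 CPM with TAK-243 against 549 and 552 CPM in untreated cells. Both treated libraries lay at less than 0.5 of the control level, a log2 fold change of −1.13 (SE 0.031, 95% CI −1.20 to −1.07, edgeR adjusted p = 2.81e-23). E2f1, a transcription factor of S phase genes, had 15.3 and 11.3 CPM against 31.8 and 29.8 CPM. Its log2 fold change was −1.19 (SE 0.11, 95% CI −1.40 to −0.97, edgeR adjusted p = 4.07e-11). These were the largest changes among the 10 genes in this comparison, and both stayed called with every single library left out and on the TPM scale.

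Cdkn1b, whose protein p27 is an inhibitor of CDK2 that UBA1-dependent ligases remove, had 99.7 and 104 CPM with TAK-243 against 137 and 140 CPM. Its RNA thus fell, with a log2 fold change of −0.44 (SE 0.04, edgeR adjusted p = 8.53e-11). Ccne1 had 10.6 and 10.2 CPM against 14.2 and 15.0 CPM, a log2 fold change of −0.49 (SE 0.12, edgeR adjusted p = 5.36e-04). Ccne2, the other E-type cyclin, had 58.5 and 64.5 CPM against 61.7 and 64.6 CPM, with overlapping groups and a 95% CI of the log2 fold change from −0.17 to 0.08. The E-type pair therefore gave a called decrease for Ccne1 and a change bounded within 0.17 for Ccne2, although the difference between the genes was not tested.

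Ccnd3 had 35.2 and 29.4 CPM against 39.4 and 41.5 CPM (log2 fold change −0.31, SE 0.08, edgeR adjusted p = 0.00136). Skp2, the F-box protein for p27, had 94.9 and 95.2 CPM against 105 and 107 CPM, a small decrease (log2 fold change −0.16, SE 0.04, edgeR adjusted p = 0.00278). Cdc25a was the 1 gene that rose, at 112 and 107 CPM against 98.5 and 95.9 CPM (log2 fold change 0.17, SE 0.05, edgeR adjusted p = 0.00153). The rise of Cdc25a rested on 1 library: without TAK-243 replicate 1 its adjusted p was 0.239. Rb1 (16.9 and 19.9 against 20.3 and 18.6 CPM) was not called and its groups overlapped. Ccnd2 was close to absent in culture, at 0.92 and 1.20 against 0.70 and 0.75 CPM, and was not called. On the log2(TPM + 1) scale 5 of the 10 genes were called, all lower, with Ccnd3 and Cdc25a no longer called.

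**Figure D1:**
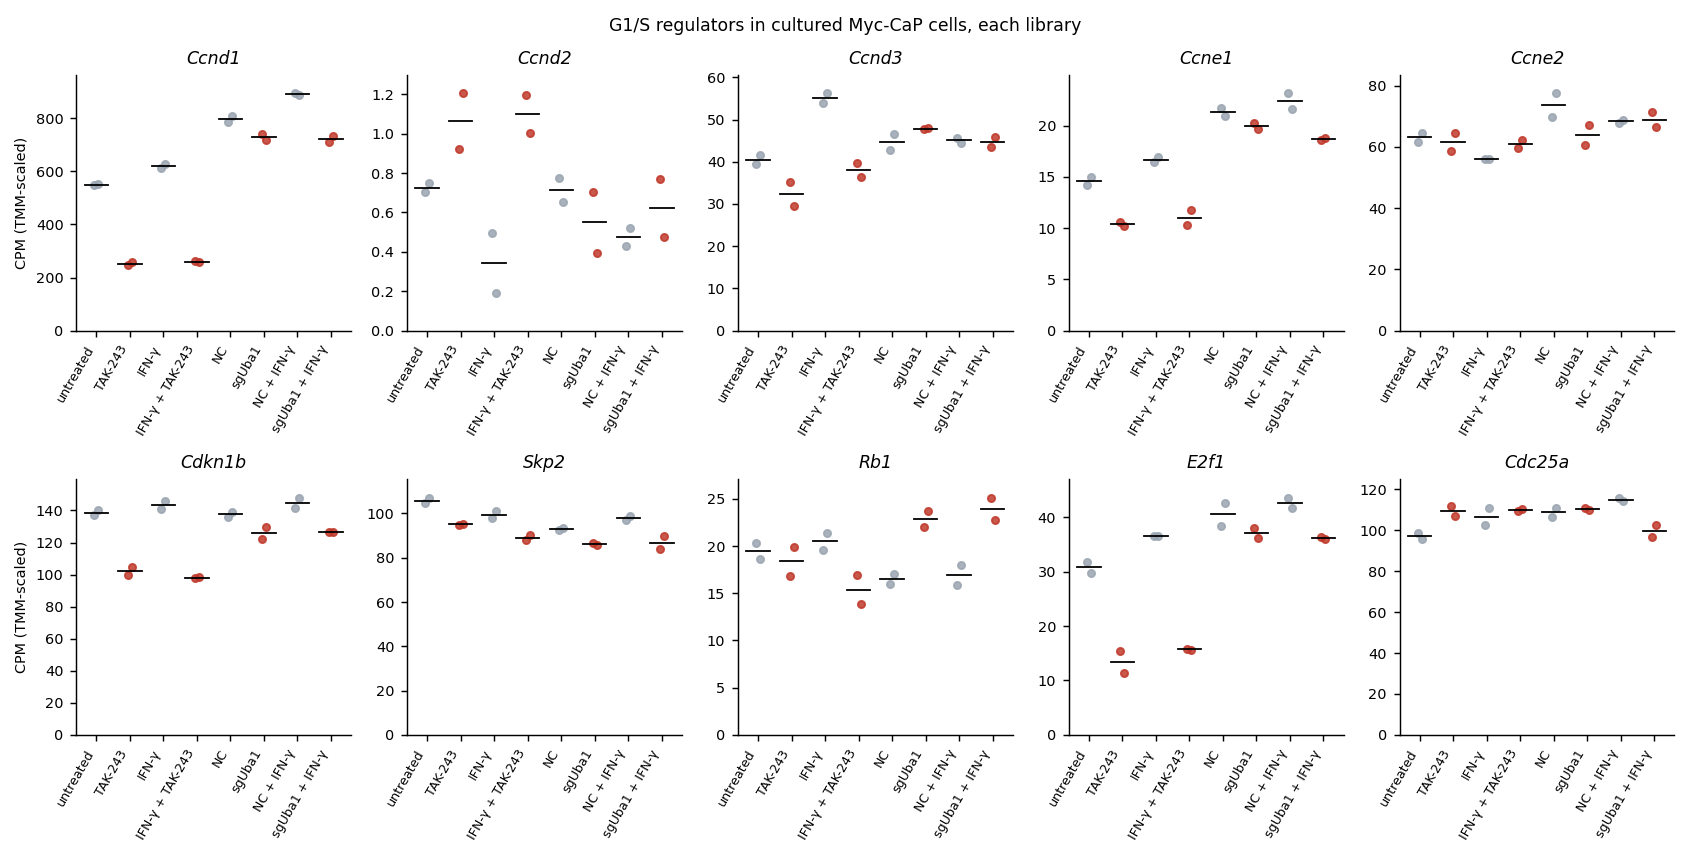
Expression of the 10 genes in cultured Myc-CaP cells, 1 panel per gene, with CPM on the y axis, the 8 groups on the x axis, a point for each of the 2 libraries of a group and a line at their mean. Ccnd1 sat between 245 and 260 CPM in the 4 libraries with TAK-243 and at 549 CPM or more in all 12 others, and E2f1 sat at 15.8 CPM or less with TAK-243 and at 29.8 CPM or more in the others.

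TAK-243 was also compared in the presence of IFN-γ, against cells given IFN-γ alone. Here 8 of the 10 genes were called, 7 lower and 1 higher, where 68.2% of all genes were called, again near the background. Ccnd1 had 260 and 257 against 612 and 628 CPM (log2 fold change −1.26, SE 0.03, edgeR adjusted p = 1.34e-24), and E2f1 had 15.8 and 15.7 against 36.5 and 36.6 CPM (−1.21, SE 0.10, edgeR adjusted p = 7.23e-12). Both decreases were thus seen in cells with and without IFN-γ, in separate libraries. Cdkn1b had 97.8 and 98.3 against 141 and 146 CPM (−0.55), Ccnd3 39.8 and 36.3 against 53.8 and 56.2 CPM (−0.53), and Ccne1 10.3 and 11.8 against 16.5 and 16.9 CPM (−0.59). All 3 were called, and in none did the groups overlap in CPM. How many of all genes had groups without overlap was not counted, here or in any other comparison. Ccne1 overlapped in TPM, at 10.2 to 11.6 against 11.4 to 13.9, and was not called on the log2(TPM + 1) scale (−0.19, limma adjusted p = 0.305).

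Rb1, the pocket protein that holds E2F factors inactive, had 16.9 and 13.8 CPM with both agents against 19.6 and 21.4 CPM with IFN-γ alone (log2 fold change −0.42, SE 0.11, edgeR adjusted p = 0.00134), and the call was lost without replicate 2 of the cells given both (adjusted p = 0.0612). Skp2 had 87.8 and 90.4 against 97.7 and 101 CPM (−0.16, edgeR adjusted p = 0.00292), a direction that turned on the log2(TPM + 1) scale (0.0044, limma adjusted p = 0.946). Ccnd2 was the 1 gene called higher, at 1.2 and 1.0 against 0.49 and 0.19 CPM (1.68, SE 0.57, edgeR adjusted p = 0.00989), a change between 17 and 16 expected counts and 7 and 3. It was not called without replicate 2 of the IFN-γ cells (adjusted p = 0.146) or replicate 1 of the cells given both (0.0599). Ccne2 and Cdc25a were not called, with log2 fold changes of 0.12 and 0.04. With log2(TPM + 1), however, the median over all genes moved to 0.12, from 0.02 on the count scale, and 7 genes were called, 3 higher (Ccnd2, Ccne2 and Cdc25a) and 4 lower (Ccnd1, Ccnd3, Cdkn1b and E2f1). The difference between the TAK-243 effects with and without IFN-γ was called for 0 of the 10 genes by edgeR, where 2.38% of all genes were called. It had an unadjusted p under 0.05 for 2, Ccnd1 (−0.13) and Rb1 (−0.33), and for 2154 of all 14551 genes. DESeq2 also called 0.

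In sgUba1 cells the largest called change among the 10 genes was a rise of Rb1, which cannot be told apart from a difference between clones. Without IFN-γ, 2 of the 10 genes were called, where 29.7% of all genes were called. Rb1 had 22.0 and 23.7 CPM in sgUba1 cells against 16 and 17.1 CPM in NC cells. These groups did not overlap, though the share of all genes without overlap was not counted. Its log2 fold change was 0.47 (SE 0.09, 95% CI 0.28 to 0.66, edgeR adjusted p = 0.00197), and it stayed called with each library left out, under every other tool and scaling tried. Ccne2 was lower, at 60.6 and 67.3 against 69.9 and 77.4 CPM (−0.20, SE 0.07, edgeR adjusted p = 0.0362), a call lost without NC replicate 2 (adjusted p = 0.146) or sgUba1 replicate 1 (0.165). Ccnd1, at 740 and 719 against 785 and 810 CPM, lay at the threshold (−0.13, edgeR adjusted p = 0.05004) and was not called. The change in Ccnd1 seen with TAK-243 in unmodified cells (−1.13) and that in sgUba1 cells (95% CI −0.23 to −0.03) came from experiments with separate controls, and their difference was not tested.

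With IFN-γ, 7 of the 10 genes were called between sgUba1 and NC cells, 6 lower and 1 higher, where 39.4% of all genes were called (22.4% lower and 17% higher). Rb1 again was the gene that rose, with 25.1 and 22.7 against 15.9 and 17.9 CPM (log2 fold change 0.50, SE 0.09, 95% CI 0.31 to 0.69, edgeR adjusted p = 7.48e-04). Ccnd1 had 712 and 735 against 894 and 889 CPM (−0.30, SE 0.04, edgeR adjusted p = 2.77e-04). Both calls stood with each library left out. The other 5 decreases were small: Ccne1 (−0.26), E2f1 (−0.24), Cdc25a (−0.21), Cdkn1b (−0.19) and Skp2 (−0.17), with edgeR adjusted p from 0.00466 to 0.0114. All 5 were lost without sgUba1 IFN-γ replicate 1 (adjusted p 0.129 to 0.388), which left Rb1 and Ccnd1 as the 2 genes called, and on the log2(TPM + 1) scale 3 were called, Rb1, Ccnd1 and Ccne1. The median log2 fold change of the 10 genes was −0.18 with IFN-γ and −0.12 without it, beside 0.01 and 0.00 over all genes. The difference between the sgUba1 effects with and without IFN-γ was called for 0 genes by edgeR, where 4.64% of all genes were called. It had an unadjusted p under 0.05 for 3, Ccnd1 (−0.17), Ccne2 (0.22) and Cdc25a (−0.23), and for 3342 of all 15530 genes. DESeq2 called 0 of the 10.

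**Figure D2:**
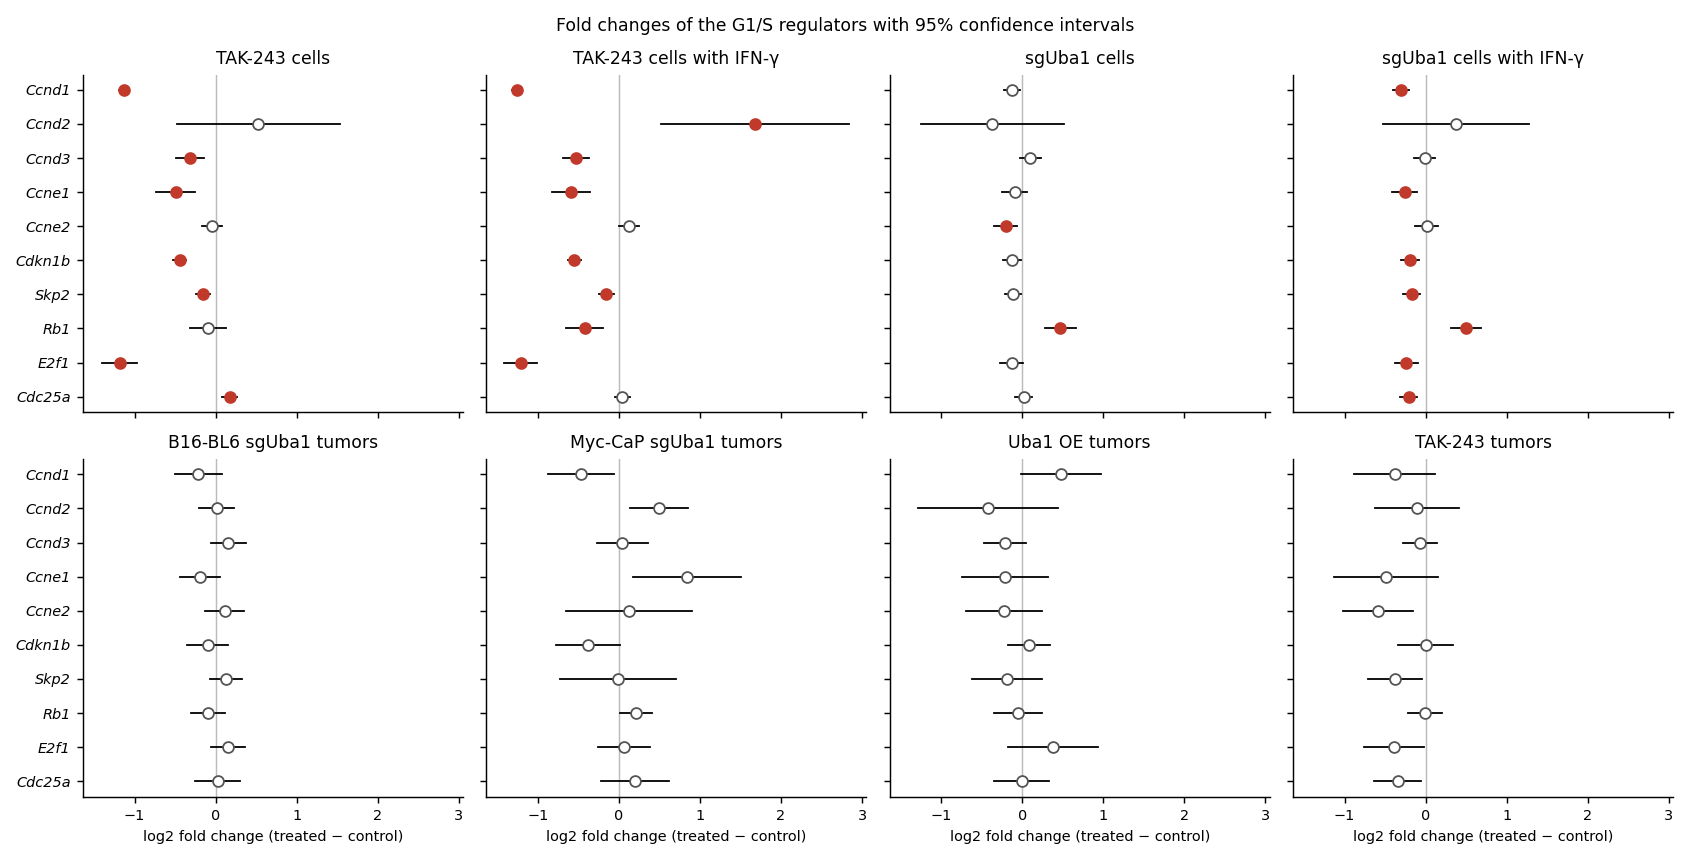
Log2 fold change of the 10 genes in the 8 treatment comparisons, 4 in cells and 4 in tumors, with the 95% confidence interval as a bar and red filled points for an adjusted p under 0.05. The intervals of Ccnd1 and E2f1 with TAK-243 in cells lie below −0.9, Rb1 lies above 0.2 in both sgUba1 cell comparisons, and no point is filled in the tumor panels.

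IFN-γ itself was followed by small changes. In NC cells 0 of the 10 genes were called by edgeR, where 3.88% of all genes were called, with 1 at an unadjusted p under 0.05 (Ccnd1, 894 and 889 against 785 and 810 CPM, 0.16, adjusted p = 0.0683), and DESeq2 called 0. Of all 15530 genes, 3572 had an unadjusted p under 0.05. In unmodified cells 5 of the 10 were called, 4 higher and 1 lower, where 29.0% of all genes were called. Ccnd3 had 53.8 and 56.2 CPM with IFN-γ against 39.4 and 41.5 CPM without (0.44, SE 0.08, edgeR adjusted p = 4.86e-05), and it was called higher under every scaling and with each library left out. The other 4 depended on the scale or on single libraries. Ccnd1 had 612 and 628 against 549 and 552 CPM (0.17, edgeR adjusted p = 4.15e-05) and Cdc25a 103 and 111 against 98.5 and 95.9 CPM (0.14, edgeR adjusted p = 0.0251), but on the log2(TPM + 1) scale their log2 fold changes were −0.060 and −0.089. E2f1 (0.25, edgeR adjusted p = 0.0408) and Ccne2 (−0.17, edgeR adjusted p = 0.0322) were lost with any 1 of the 4 libraries left out. The TPM scale moved the median of all genes in this comparison from 0.04 to −0.14, and the genes called higher from 2849 of 4216 to 190 of 2842. On it 4 of the 10 genes were called, Ccnd3 higher and Ccne2, Skp2 and Cdkn1b lower. Relative to its median of all genes, Ccnd1 lay slightly above on either scale.

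In tumors, none of the 4 ways of changing UBA1 gave a called change in any of the 10 genes with edgeR. In B16-BL6 sgUba1 tumors, with Uba1 RNA at 0.53 of the control mean, 0 of the 10 genes were called where 0.724% of all genes were called, and DESeq2 also called 0. An unadjusted p under 0.05 was found for 0 of the 10 and for 2861 of all 17539 genes. Ccnd2, the D-type cyclin with the highest level in this melanoma, had 1090.5, 968, 998 and 902 CPM in sgUba1 tumors against 1122, 877 and 947 CPM in sgNC tumors. The 95% CI of its log2 fold change ran from −0.20 to 0.23. Ccnd1 had 186, 230, 159 and 238 CPM against 259, 226 and 222 CPM (−0.21, 95% CI −0.51 to 0.08), and E2f1 had 45.0, 47.5, 47.2 and 53.9 CPM against 42.4, 49.5 and 38.8 CPM (0.15, 95% CI −0.06 to 0.36). The groups of all 10 genes overlapped, and the median log2 fold change was 0.02, beside 0.01 over all genes. In bulk tumors fewer cells of a type and less RNA per cell cannot be told apart, and the summed leukocyte markers ranged from 124 to 156 CPM in sgUba1 and from 74.8 to 129 CPM in sgNC tumors. Their part in these values was not tested.

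In Myc-CaP sgUba1 tumors 0 of the 10 genes were called by edgeR, where 3.04% of all genes were called. An unadjusted p under 0.05 was found for 4 of the 10 and for 3835 of all 16202 genes. DESeq2 called 1, Ccnd2, where it called 1862 of all 16202 genes. The edgeR background rests on single tumors: 492 genes were called in all, 10 without sgNC replicate 2 and 14 without sgUba1 replicate 4. Cdkn1b had 131, 126, 134, 79.3, 94.3, 79.9 and 102 CPM in sgUba1 replicates 1 to 7 against 144, 136 and 138 CPM in sgNC tumors. All 7 lay below every control in CPM (log2 fold change −0.38, 95% CI −0.78 to 0.01, edgeR adjusted p = 0.220). In TPM the Cdkn1b groups overlapped, at 33.4 to 63.6 in sgUba1 against 61.8 to 68.6 in sgNC tumors. Rb1 had 45.2, 40.6, 41.4, 39.7, 39.8, 41.1 and 41.5 CPM against 39.6, 33.9 and 33.8 CPM, all 7 above every control by a small margin (0.21, 95% CI 0.01 to 0.40, edgeR adjusted p = 0.189). The share of all genes whose groups separate in this way was not counted. Ccne1 had 16, 14.6, 14.4, 13.7, 6.29, 11.8 and 14.1 CPM against 9.36, 4.33 and 7.96 CPM, 6 of 7 above every control (0.84, 95% CI 0.18 to 1.51, edgeR adjusted p = 0.130). In TPM, sgUba1 replicate 6 (10.37) lay below sgNC replicate 1 (10.47). Ccnd2 had a lowest value of 14.7, a median of 18.9 and a highest of 23.8 CPM against 12.6, 12.1 and 15.0 CPM (0.50, edgeR adjusted p = 0.106, and 0.49 with a DESeq2 adjusted p of 0.0390). Ccnd1 ranged from 165 to 262 CPM against 228, 425 and 273 CPM (−0.47, edgeR adjusted p = 0.158).

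The 7 sgUba1 tumors, fitted as 1 group, fell into separate blocks for several genes, replicates 1 to 3 and replicates 4 to 7. Pairs of these tumors had a chi-square per degree of freedom, which measures disagreement beyond counting noise, of 9.71 to 22.7 or of 61.3 to 86.9. No pair lay between these ranges, and pairs of sgNC tumors had 13.2 to 83.8. Whether the blocks carry different guides or clones was not tested. Skp2 had 54.2, 59.0 and 55.8 CPM in replicates 1 to 3 and 33.0, 20.9, 31.1 and 32.3 CPM in replicates 4 to 7, whereas the sgNC tumors had 48.7, 26.8 and 48.5 CPM. Ccne2 had 41.7, 36.3, 36.2, 21.5, 12.6, 24.2 and 26.9 CPM in the same order, against 34.3, 14.7 and 29.3 CPM. Replicates 4 to 7 are the 4 libraries with Uba1 RNA above every control, and the lowest Skp2, Ccne2 and Cdkn1b values of the sgUba1 group were in them. Leaving these 4 out, a choice made after seeing the data, also gave 0 called genes among the 10. The summed leukocyte markers ranged from 211 to 348 CPM in sgUba1 and from 138 to 229 CPM in sgNC tumors, and the summed fibroblast markers from 1098 to 3134 CPM and from 866 to 1571 CPM. Their part in these values was not tested.

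In Uba1 OE tumors, 0 of the 10 genes were called by edgeR, where 0.0269% of all genes were called, and DESeq2 also called 0. An unadjusted p under 0.05 was found for 0 of the 10 and for 2698 of all 14853 genes. Ccnd1 had 402, 278, 216 and 232 CPM against 195, 236 and 178 CPM in EV tumors (0.47, 95% CI −0.02 to 0.97, edgeR adjusted p = 0.289). Ccnd3 had 47.2, 56.7, 63.0 and 61.7 CPM against 67.9, 64.0 and 67.3 CPM, without overlap in CPM (−0.22, 95% CI −0.47 to 0.04, edgeR adjusted p = 0.344). Its TPM ranges overlapped, at 57.3 to 82.0 in OE against 70.5 to 89.9 in EV tumors, and the share of all genes without overlap in CPM was not counted. E2f1 had 37.5 CPM in OE replicate 1 and 19.0 to 23.1 CPM in the other 3 tumors, against 17.3 to 21.9 CPM with EV (0.38, edgeR adjusted p = 0.428). Cdkn1b ranged from 143 to 158 CPM against 115 to 155 CPM. The summed leukocyte markers ranged from 70.2 to 200 CPM in OE and from 193 to 233 CPM in EV tumors, with Cd3e, Cd3g, Ly6g and Nkg7 at 3 counts or fewer in every OE tumor and Ly6g and Nkg7 in every EV tumor. Skeletal muscle markers summed to 5.89 to 560 CPM in OE (median 77.9 CPM) and to 5.47 to 8.15 CPM in EV tumors. Their part in these values was not tested.

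In tumors of mice given TAK-243, 0 of the 10 genes were called by edgeR, where 0.145% of all genes were called, and DESeq2 also called 0. An unadjusted p under 0.05 was found for 4 of the 10, all lower, and for 2587 of all 17299 genes. Ccne2 had 21.5, 31.7, 23.9, 14.2 and 15.5 CPM with TAK-243, and a lowest value of 24.8, a median of 31.8 and a highest of 42.9 CPM in the 6 vehicle tumors. In 4 of the 5 treated tumors it lay below every vehicle tumor (−0.59, 95% CI −1.02 to −0.15, edgeR adjusted p = 0.212). Skp2 (−0.37, 95% CI −0.71 to −0.04), E2f1 (−0.39, −0.75 to −0.02) and Cdc25a (−0.35, −0.63 to −0.06) had edgeR adjusted p of 0.288, 0.311 and 0.259. Ccnd1 had 248, 226, 280, 103 and 146 CPM against 193 to 325 CPM, with overlapping groups. The 95% CI of its log2 fold change ran from −0.88 to 0.12 and includes 0, beside a value of −1.13 in culture. Cdkn1b had 110, 114, 128, 144 and 210 CPM against 125 to 172 CPM (95% CI −0.34 to 0.34), beside −0.44 (95% CI −0.53 to −0.36) in cultured cells. Tumors and cultured cells were separate experiments with other doses, times and cell types. The difference between their TAK-243 effects was not tested. The median log2 fold change of the 10 genes was −0.36, beside 0.01 over all genes. Prostate epithelial markers summed to between 2668 and 3686 CPM with TAK-243 and to between 1719 and 2476 CPM with vehicle, and leukocyte markers to 113 to 232 and 97.3 to 143 CPM; their part in these values was not tested.

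**Figure D3:**
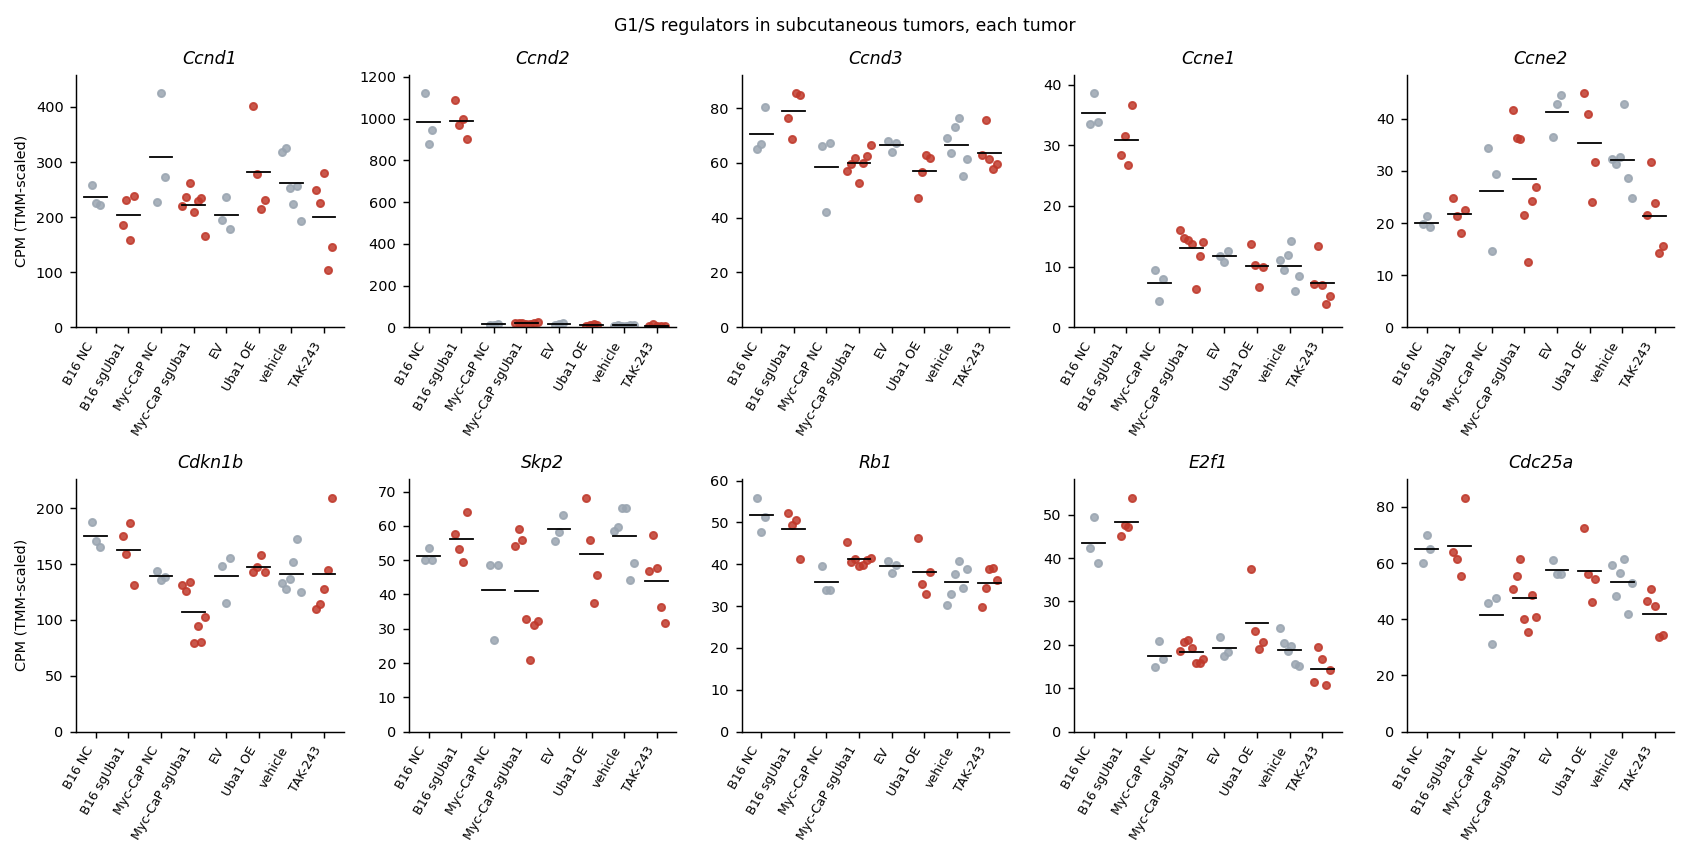
Expression of the 10 genes in subcutaneous tumors, 1 panel per gene, with CPM on the y axis, the 8 tumor groups on the x axis, a point for each tumor and a line at the group mean, red for tumors with altered or inhibited UBA1. Ccnd2 lies between 877 and 1122 CPM in B16-BL6 and at 23.8 CPM or less in every Myc-CaP tumor, Ccne1 and E2f1 also lie higher in B16-BL6 sgNC than in Myc-CaP sgNC tumors, and within each pair the red and grey points mostly overlap.

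Larger differences were found between the lines of origin. Between B16-BL6 and Myc-CaP sgNC tumors 5 of the 10 genes were called, all higher in B16-BL6, where 58.6% of all genes were called (29.9% higher), so that the count itself is near the background. Ccnd2 had 1122, 877 and 947 CPM against 12.6, 12.1 and 15.0 CPM, a 74.3-fold difference (log2 6.21, SE 0.19, edgeR adjusted p = 1.98e-13). Ccne1 had 33.6, 38.6 and 33.8 CPM against 9.36, 4.33 and 7.96 CPM (2.29, SE 0.29, edgeR adjusted p = 4.12e-06). E2f1 had 42.4, 49.5 and 38.8 CPM against 14.9, 20.8 and 16.6 CPM (1.33, SE 0.14, edgeR adjusted p = 7.74e-07), and Rb1 had 55.9, 47.8 and 51.2 CPM against 39.6, 33.9 and 33.8 CPM (0.54, SE 0.10, edgeR adjusted p = 2.65e-04). Cdc25a (0.65, edgeR adjusted p = 0.0114) was called only with Myc-CaP sgNC replicate 2 included, with an adjusted p of 0.0660 without it. Ccnd1, Ccnd3, Ccne2, Cdkn1b and Skp2 were not called, with log2 fold changes from −0.38 to 0.33. The line, the mouse strain, the sex of the hosts and the experiment go together in these groups and cannot be told apart. Depth differed too, at 28570255 to 35693203 expected counts in B16-BL6 against 10668740 to 12552908 in Myc-CaP sgNC tumors. The difference between the sgUba1 effects in the B16-BL6 and Myc-CaP tumors was called for 0 genes by edgeR, where 1.52% of all genes were called. An unadjusted p under 0.05 was found for 3 of the 10 (Ccne1 −1.04, Ccnd2 −0.49, Rb1 −0.32) and for 3211 of all 17513 genes. DESeq2 called Ccne1 (−1.06, adjusted p = 0.0373), where it called 1197 of all 17513 genes. So did edgeR without the 4 sgUba1 tumors whose Uba1 RNA was above every control, a choice made after seeing the data (−1.25, adjusted p = 0.0465). That fit called 296 of 18767 genes.

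Per length, the mixture of cyclins differed between the lines and the setting. In B16-BL6 sgNC tumors Ccnd2 made up 58.1% ± 1.76 (SD, n = 3) of the summed TPM of the 3 D-type cyclins, Ccnd1 21.8% ± 1.04 and Ccnd3 20.1% ± 2.46. In Myc-CaP tumors the group means were 50.0% to 62.9% for Ccnd1, 35.2% to 48.6% for Ccnd3 and 1.17% to 2.88% for Ccnd2. In cultured Myc-CaP cells Ccnd1 made up 71.3% to 86.8% of the sum and Ccnd2 at most 0.18% as a group mean. With TAK-243, the summed TPM of the D-type cyclins was 138 and 141 in cultured cells against 265 and 272 without treatment, and the share of Ccnd1 was 72.3% ± 0.25 against 83.9% ± 0.70 (SD, n = 2 each). Of the 2 E-type cyclins, Ccne1 made up 76.5% ± 0.67 of the TPM in B16-BL6 sgNC tumors (SD, n = 3), 33.9% to 47.0% as group means in Myc-CaP tumors and 20.9% to 38.4% in cells. The highest Myc-CaP tumor share, 47.0% ± 5.39 (SD, n = 7), was in the sgUba1 tumors, beside 34.0% ± 4.05 (SD, n = 3) in sgNC tumors.

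**Figure D4:**
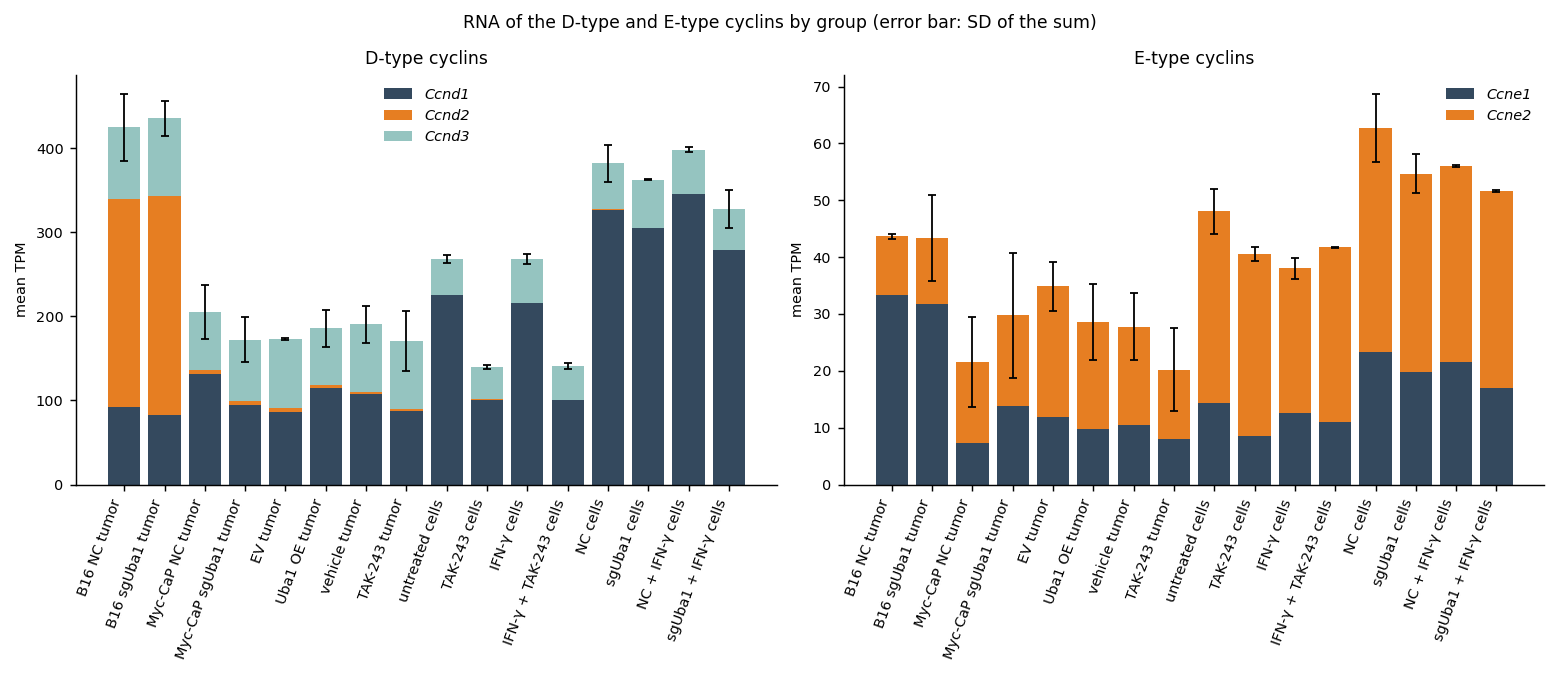
Stacked mean TPM of the 3 D-type cyclins (left) and the 2 E-type cyclins (right) in the 16 groups, with the SD of the summed TPM over the libraries of a group as an error bar. Ccnd2 fills 58.1% of the D-type bar in B16-BL6 sgNC tumors and at most 2.88% of any Myc-CaP bar, and the D-type bars of TAK-243 cells stand at about 140 TPM beside 268 TPM in untreated cells.

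Ordered by mean TPM over the 16 groups, the 10 genes fell into different patterns, given as a description. Ccnd1 was highest in NC cells with IFN-γ (346 TPM) and stood at 216 TPM or more in the 6 cell groups without TAK-243, all above every tumor group. The 2 cell groups with TAK-243 (101 and 100 TPM) stood among the tumor groups, which ran from 132 TPM in Myc-CaP sgNC to 82.9 TPM in B16-BL6 sgUba1, and each neighbour there overlapped the next. Ccne2, Skp2 and Cdc25a had higher mean TPM in all 8 cell groups than in any tumor group: 25.4 to 39.3 against 10.3 to 23.0 TPM for Ccne2, 36.9 to 47.7 against 18.5 to 27.1 for Skp2, and 39.2 to 48.7 against 19.8 to 28.8 for Cdc25a. Rb1 and Ccnd3 ran the other way. Rb1 had 11.8 to 16 TPM in tumor groups against 4.72 to 7.59 TPM in cell groups, of which sgUba1 cells were highest, and Ccnd3 had 68.0 to 93.0 TPM in tumor groups against 38.4 to 57.1 TPM in cells. Cdkn1b varied least, from 78.2 TPM in B16-BL6 sgNC tumors to 48.3 TPM in cells with TAK-243 and IFN-γ. E2f1 was highest in B16-BL6 sgUba1 tumors (27.6 TPM) and lowest in TAK-243 cells (7.48 TPM). Cells and tumors differ in the other cell types they hold and were not compared by a test.

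The rest of the machinery was read in the same comparisons from gene lists, which were written with earlier results of these data known. In TAK-243 cells the Rb and E2F family had 1 gene higher and 7 lower of 10 tested, with a median log2 fold change of −0.65. Among them Tfdp1, the partner of E2F proteins, had 149 against 342 CPM (−1.20), Rbl1 (p107) 34.7 against 91.1 CPM (−1.39) and Rbl2 (p130) 11.9 against 46.9 CPM (−2.0). G1 kinases and their activators had 2 higher and 6 lower of 9, with Ccnh (−1.83), Ccna2 (−0.56) and Cdk4 (−0.45) lower. Of 20 E2F target genes of S phase entry, 14 were lower and 5 higher, and Rrm2, a subunit of ribonucleotide reductase, was lowest in p with 155 against 593 CPM (−1.93), followed by Uhrf1 (−0.64) and Mcm7 (−0.40). The other CDK inhibitors had 4 lower and 1 higher of 6, the 1 being Cdkn1a (p21), at 68.1 against 15.3 CPM (2.16), while Cdkn2c (−0.99) and Cdkn2d (−0.90) fell.

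Of the ligase parts more genes rose than fell. Of 19 tested, 12 rose and 4 fell in TAK-243 cells, with Skp1a, the adaptor of SCF ligases, at 336 against 164 CPM (1.04), Mdm2, the ligase for p53, at 106 against 53.4 CPM (0.99) and Cul4a at 59.3 against 117 CPM (−0.98). The mitosis list was mixed, with 6 higher and 4 lower of 12: Cenpf (1.58) and Bub1 (0.87) rose and Ccnb2 (−1.45) fell. With IFN-γ the counts higher and lower were 1 and 7 for the Rb and E2F family, 2 and 6 for G1 kinases, 4 and 15 for E2F targets, 1 and 5 for CDK inhibitors, 12 and 4 for ligase parts and 7 and 4 for mitosis. All these counts stand beside the 66.3% and 68.2% of all genes called.

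In sgUba1 cells the called mitosis genes were all lower, 7 of 12 without IFN-γ and 8 of 12 with it, where 13.6% and 22.4% of all genes were called lower and 16.2% and 17% higher. The kinase Aurka had 90.3 against 134 CPM (−0.57) without and 89.2 against 158 CPM (−0.82) with IFN-γ, and Aurkb fell by 0.37 and 0.76 on the log2 scale. E2F targets had 9 higher and 4 lower without IFN-γ and 3 higher and 10 lower with it. G1 kinases had 3 higher and 1 lower, with Cdk6 higher at 330 against 220 CPM (0.58), CDK inhibitors 1 and 2, the Rb and E2F family 3 and 2 and ligase parts 6 and 3, and with IFN-γ these were 3 and 2, 0 and 2, 1 and 7 and 4 and 4. Most of these counts moved with single libraries, whereas the mitosis list had 6 to 8 genes lower with any 1 left out and at most 1 higher (without NC replicate 1). Without sgUba1 replicate 1 the genes higher were 1 E2F target, 1 ligase part and 1 G1 kinase, and without sgUba1 replicate 2 they were 4 E2F targets and 2 ligase parts. With IFN-γ, leaving out sgUba1 IFN-γ replicate 1 gave 5 E2F targets and 3 genes of the Rb and E2F family lower, leaving out sgUba1 IFN-γ replicate 2 gave 4 of that family lower, and leaving out either NC IFN-γ library gave 0 E2F targets and 2 ligase parts higher.

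IFN-γ in unmodified cells gave 12 E2F targets higher and 0 lower of 20, among them Mcm5 (0.32), Uhrf1 (0.26) and Mcm3 (0.25), where 19.6% of all genes were called higher and 9.39% lower. On the log2(TPM + 1) scale the E2F target counts were 0 higher and 5 lower. The other lists, higher and lower, had 2 and 1 G1 kinases, 3 and 0 CDK inhibitors, 1 and 1 of the Rb and E2F family, 7 and 4 ligase parts and 4 and 5 mitosis genes. Only 1 CDK inhibitor was higher without control replicate 2, and no gene of the Rb and E2F family was called without control IFN-γ replicate 2. In NC cells IFN-γ gave at most 2 called genes in any list, all higher, beside 3.88% of all genes called. Without NC replicate 1 or without NC replicate 2, 10 E2F targets and 6 mitosis genes were higher. G1 kinases then had 5 or 2 higher and ligase parts 6 or 3. These 2 fits called 2059 of 15972 and 1298 of 15971 genes higher. Leaving out NC IFN-γ replicate 1 or 2 gave 0 called genes in every list, where 37 or 35 of all genes were called.

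In the 4 tumor comparisons of altered UBA1, edgeR called no gene of any list with all tumors. Without TAK-243 tumor replicate 5 it called 9 mitosis genes lower and 1 gene lower in each of 4 other lists, without Uba1 OE replicate 1 it called 1 G1 kinase and 1 mitosis gene higher, and without B16-BL6 sgUba1 replicate 3 it called 1 CDK inhibitor lower. Of all genes, these fits called 299 of 17466, 386 of 14722 and 140 of 17386 in either direction. The medians in TAK-243 tumors were −0.77 for E2F targets and −0.76 for mitosis, and in Uba1 OE tumors 0.36 and 0.62. In TAK-243 tumors DESeq2 called 7 E2F targets and 11 mitosis genes lower, where it called 558 of all 17299 genes, 218 of them higher. Between B16-BL6 and Myc-CaP sgNC tumors 12 E2F targets (Uhrf1 2.02, Tk1 1.95, Chaf1b 1.15) and 10 mitosis genes were higher and 0 lower, where 29.9% of all genes were called higher and 28.8% lower. The mitosis count was 4 without Myc-CaP sgNC replicate 2, 5 without B16-BL6 sgNC replicate 2 and 6 without B16-BL6 sgNC replicate 1 or 4. The Rb and E2F family had 3 higher without B16-BL6 sgNC replicate 2 and 5 lower without Myc-CaP sgNC replicate 2, and 1 G1 kinase was higher without either of these. Of G1 kinases 2 were higher, led by Cdk2 at 376 against 25.9 CPM (3.86), and 3 lower, among them Cdk6 (−1.40) and Cdk7 (−0.51). The other CDK inhibitors had 2 higher, with Cdkn1a at 174 against 28.9 CPM (2.59), and 3 lower, with Cdkn2a (p16 and p19ARF) at a mean of 0.011 CPM in B16-BL6 against 76.5 CPM in Myc-CaP and Cdkn2b at 0.192 against 4.61 CPM. The Rb and E2F family had 5 higher and 3 lower, with E2f6 (4.03) and E2f3 (0.72) higher and E2f4 (−1.65) lower, and ligase parts 8 and 8, with Fbxo31 (−3.47) and Ddb1 (−1.21) lower and Fzr1 (1.07) higher.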

How the data were processed

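RNA-seq was read from 2 tables. The deposited expected counts were not normalized and 31.9% of the values were not whole, so they were rounded to whole numbers, and the deposited TPM values are scaled by transcript length and library size. Per the labels, the authors' processing notes list kallisto and the build mm10 without their roles, and the versions were not given in the sources used here. The labels describe poly-A capture, whereas the study's methods name removal of ribosomal RNA. Groups follow the sample titles. Each tumor experiment was fitted alone, each cell experiment as 4 group means over 8 libraries, and the lines over their 17 sgRNA tumors, in edgeR 4.0.16 (R 4.3.3) with filterByExpr, TMM scaling, quasi-likelihood tests and Benjamini-Hochberg adjustment at 0.05, for 14 comparisons. Intervals at 95% use the t quantile of the test. The fits were tested on simulated counts with the same spread for every gene and fit, which does not show how they perform on these tumors. Alternatives were DESeq2 1.42.0, limma 3.58.1 (voom, and log2(TPM + 1) or log2(TPM + 0.1)), RLE scaling, dropping the low-count filter, requiring 10 counts in each library, the replicate number as a block and each library left out.

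All 10 genes and Uba1 are named. Of each pathway list at most the 3 called genes with the smallest adjusted p per comparison are named. The 10 genes and the lists were chosen with earlier results of these data known. Of 75 replicate pairs none agreed within counting noise (chi-square per degree of freedom 1.84 to 99.2), and depth limits the precision of Ccnd2 in culture, which had 3 to 17 expected counts in the comparison that called it.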

Additional observations from a re-analysis of the deposited data

Results flagged for a closer look

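In 50 tests, each of 1 gene in 1 group of 4 to 10 tumors, for a highest or lowest value far from the others, 2 values stood out, about as chance gives with 1 in 20 groups. Ccnd3, a D-type cyclin, had 75.5 CPM in TAK-243 tumor replicate 2, above 57.9 to 62.9 CPM in the other 4 TAK-243 tumors. Rb1 had 45.2 CPM in Myc-CaP sgUba1 tumor replicate 1, above 39.7 to 41.5 CPM in the other 6. Neither gene was called in its comparison.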

How the results depend on the processing

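Of the 34 called changes of single genes, limma-voom, RLE scaling and the replicate block kept all 34, DESeq2 29, no low-count filter 33, at least 10 counts in every library 31 of the 33 it tested, and either TPM scale 20, with 11 no longer called and 3 turned in sign. The turned values, for log2(TPM + 1) and log2(TPM + 0.1), were 0.0044 and 0.0045 for Skp2 with TAK-243 and IFN-γ, −0.060 and −0.061 for Ccnd1 and −0.089 and −0.091 for Cdc25a with IFN-γ in unmodified cells. The number of the 10 genes called moved in sgUba1 cells from 2 to 5 with at least 10 counts and to 1 on either TPM scale, and with IFN-γ from 7 to 3 on either TPM scale. DESeq2 gave 2 and not 5 with IFN-γ in unmodified cells, 1 and not 0 in Myc-CaP sgUba1 tumors and 1 and not 0 for the difference between the lines' sgUba1 effects, for which leaving out the 4 sgUba1 tumors with Uba1 RNA above every control, added after seeing the data, also gave 1. No filter gave 1 and not 0 with IFN-γ in NC cells. The cause was not tested.

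With single libraries left out, the number called ranged from 1 to 5 in sgUba1 cells (5 without NC replicate 1, 1 without sgUba1 replicate 1), from 2 to 5 with IFN-γ (2 without sgUba1 IFN-γ replicate 1), from 2 to 3 for IFN-γ in unmodified cells, from 0 to 1 for IFN-γ in NC cells (1 without NC replicate 1 or 2), from 0 to 3 for the sgUba1 by IFN-γ difference (3 without NC replicate 1, 2 without NC replicate 2), from 6 to 7 with TAK-243, from 7 to 8 with TAK-243 and IFN-γ and from 4 to 6 between the lines, and stayed at 0 elsewhere. Same-numbered tumors did not deviate together in every pair (correlations −0.247 to 0.411). In cells, with 2 libraries a group, both numbers of a comparison give the same correlation by construction (0.0084 to 0.157). Whether the numbers pair the samples is therefore not settled, and the main fits did not use them. The replicate block changed none of the 34 calls and added Ccnd1 in sgUba1 cells (adjusted p = 0.0458) and Cdkn1b between the lines (0.00619). Over all genes it moved the calls in Myc-CaP sgUba1 tumors from 492 to 2, where DESeq2 gave 1862. With single libraries left out, the genes called of all tested ran from 10 to 692 in Myc-CaP sgUba1 tumors, from 43 to 320 in B16-BL6 sgUba1 tumors (127 with all), from 0 to 386 in Uba1 OE tumors (4 with all, 386 without OE replicate 1), from 1 to 299 in TAK-243 tumors (25 with all, 299 without TAK-243 replicate 5), from 2932 to 5641 in sgUba1 cells (4618), from 35 to 2721 for IFN-γ in NC cells (603), from 14 to 2622 and from 85 to 329 for the sgUba1 and TAK-243 differences by IFN-γ (720 and 347) and from 29 to 661 for the difference between the lines' sgUba1 effects (266).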

Other observations

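Among 10573 genes with a mean TPM of at least 1 in all 16 groups, the nearest pattern was sought for each of the 10 genes as the root mean square difference of group means of log2(TPM + 1), each gene centred on its own mean. The groups share cell lines and controls, so the values are a description over 16 group means. Skp2 was nearest to Cdc25a (0.14) and Ddx20 (0.15), and Cdc25a to Sae1 (0.10) and the pseudogene Ptges3-ps (0.11), whose reads may be shared with its parent gene. Ccne2 was nearest to Topbp1 (0.14) and Ranbp1 (0.17), E2f1 to Fbxl14 (0.16) and Nucks1 (0.16), and Ccne1 to Ankrd26 (0.20) and Rbmx (0.22). Ccnd1 was nearest to Hmgb3 (0.15) and Znhit2 (0.21), and Ccnd3 to Rnasek (0.11) and Pomgnt1 (0.13). Cdkn1b was nearest to Hp1bp3 (0.11) and Psenen (0.12), and Rb1 to Wdfy2 (0.11) and Akr1b10 (0.13). Ccnd2 had no near neighbour: Nckap5l lay at 0.43 and Mitf, a melanocyte transcription factor, at 0.76.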
